A study of Mus musculus with 14 samples.

Results

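Histones are the proteins around which DNA is wound, and this account describes the genes that encode them in mouse CD8 T cells taken from tumors. Members were all genes whose symbol, in its older form, starts with Hist1h to Hist4h (replication-dependent histone genes) or with H2af, H3f3 or H1f (replacement histone genes). There were 58 members among 19959 genes over the tables, of which 43 were replication-dependent and 15 were replacement genes. The tables of the overexpression experiments use newer symbols (Hist1h2ag is listed as H2ac11), which were matched to the older ones through RefSeq synonyms. Of the 51 members found in the Prdm1 experiment, 10 match the rule as written, as do 11 of the 53 members found in the Bcl6 experiment. The symbols H1f1 to H1f5 begin with H1f but stand for the older Hist1h1 genes, and were placed with the replication-dependent genes.

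RNA sequencing was done in 3 experiments with 14 libraries in 7 groups of 2. In the first, tumor-infiltrating CD8 T cells (TILs) were sorted from mice carrying a red fluorescent reporter of Bcl6, at day 21 after subcutaneous inoculation of E.G7, an ovalbumin-expressing mouse lymphoma line. Its groups were Bcl6+ cells, TIM-3+ cells and cells labelled DN, a label that is not spelled out. In the other two, OT-I cells, which carry a transgenic T cell receptor against an ovalbumin peptide, were transferred into mice with E.G7 tumors. OT-I cells overexpressing Prdm1 (Prdm1-OE) or overexpressing Bcl6 (Bcl6-OE) were co-transferred with control OT-I cells, and both were sorted from the tumors around day 8 after transfer. Bcl6 and Prdm1 encode a pair of transcriptional repressors that oppose each other in lymphocytes. What the control OT-I cells carried in place of the factor is not given, nor is it said whether the libraries of a group came from separate animals, so p-values measure only the spread between these samples, which may be technical.

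The libraries held 18309162 to 22322079 counts in genes. Bcl6 had FPKM (fragments per kilobase of transcript and 1000000 fragments) of 13.9 and 9.95 in Bcl6-OE cells, against 0.573 and 0.53 in their controls (log2 fold change 4.34, adjusted p = 2e-11). Prdm1 had FPKM of 25.2 and 33.3 in Prdm1-OE cells, against 19.4 and 16.1 in their controls, and this difference did not pass the threshold (log2 fold change 0.81, adjusted p = 0.092). In TILs, Bcl6 had FPKM of 59.8 and 56.9 in Bcl6+ cells, 2.16 and 2.65 in TIM-3+ cells, and 12.7 and 13.4 in DN cells. All p-values are from edgeR's quasi-likelihood test, adjusted by the Benjamini-Hochberg method over all genes tested, and a gene was called at an adjusted p under 0.05.

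Replication-dependent histone genes supply the core histones H2A, H2B, H3 and H4 and the linker histone H1 while DNA is copied in S phase. They lie in clusters, have no introns, and their transcripts end in a stem-loop in place of a poly(A) tail. The stem-loop is bound by Slbp, the stem-loop binding protein that carries the transcript through processing and translation, and transcription in the clusters depends on Npat. Replacement histone genes are used through the whole cell cycle and in resting cells, and their transcripts carry poly(A) tails. A library that selects poly(A) tails therefore catches few replication-dependent transcripts. The labels name total RNA but not how it was selected before sequencing. Of 31 small RNA genes without a poly(A) tail that were looked up, 0 were listed in any of the tables. The same holds for 6 long nuclear RNA genes, of which 0 were listed. The TIL tables listed 0 replication-dependent members, and their 4 members are 1 H1 and 3 H3 replacement genes, so that no H2A replacement gene was listed there either. Replication-dependent and H2A genes are therefore described here in the OT-I experiments only, and why they are not listed for TILs was not tested.

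The stem-loop was searched for in the annotated transcripts, since it is the end by which most replication-dependent transcripts are known. The motif is 16 bases long, with a stem of 6 base pairs and a loop of 4 bases, and was found in 32 of 43 replication-dependent members (74.4%) and in 1 of 14 replacement members with an annotated transcript. Among protein-coding transcripts of other genes, 217 of 58726 held it (0.37%). The sites below are those of the members the results turn on, read 5′ to 3′ on the transcript strand with the stem-loop in capitals. Coordinates of the capitals are on mm10 (GENCODE M21): H2ac11 chr13:22042483-22042498 (minus strand), H2bc11 chr13:22043638-22043653 (plus), H2ac8 chr13:23570668-23570683 (minus), H4c4 chr13:23581950-23581965 (plus), H1f4 chr13:23621782-23621797 (minus), H1f2 chr13:23739512-23739527 (plus) and H2ax chr9:44335240-44335255 (plus).
H2ac11: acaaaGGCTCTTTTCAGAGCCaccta
H2bc11: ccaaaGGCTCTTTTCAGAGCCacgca
H2ac8: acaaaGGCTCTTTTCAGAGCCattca
H4c4: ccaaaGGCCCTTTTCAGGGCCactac
H1f4: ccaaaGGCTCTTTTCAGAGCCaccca
H1f2: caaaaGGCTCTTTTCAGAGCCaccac
H2ax: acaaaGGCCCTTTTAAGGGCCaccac
The stem reads the same in 5 of these 7 sites, while H4c4 and H2ax carry another one. The annotated transcript of H2ac11 ends 23 bases after its stem-loop. Those of H4c4, H1f4 and H1f2 run on for 770, 1153 and 840 bases. H2ax, the variant phosphorylated at DNA breaks, is the replacement member with the motif, and its transcript runs on for 822 bases.

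Promoter windows of 300 bases, 250 before to 50 after the start site, were available from RefSeq (GRCm38.p6) for 52 of 58 members, and both strands were searched for 5 motifs. TATAAA, the TATA box, was in 23 of 38 replication-dependent windows (60.5%) and 1 of 14 replacement windows (7.1%), while 14.2% of all 27025 windows held it. CCAAT was in 32 of 38 replication-dependent windows (84.2%), 10 of 14 replacement windows (71.4%) and 37.9% of all windows. ATTTGCAT, the octamer found upstream of many H2B genes, was in 9 of 38 replication-dependent windows (23.7%) and 1.75% of all windows. Those 9 were 5 of 8 H2A genes and 4 of 10 H2B genes. Among members with a window, 4 pairs of H2A and H2B genes face away from each other with start sites 162 to 247 bases apart. Pairs with a member that has no window, such as H2ac6 with H2bc4 and H2ac20 with H2bc21, are not in that count. AAACACA, a motif of H1 promoters, was in 4 of 5 H1 windows, 1 of 8 H2A, 1 of 10 H2B and 1 of 14 replacement windows, and 7.14% of all windows. TTCCTAGAA, a motif bound by Bcl6, was in 0 of 38 replication-dependent windows and 0.426% of all windows. A match is a description of the letters in the window and not a bound site. The windows of 3 genes with large differences in the Bcl6 experiment are printed to show how the motifs lie, with the first 3 of these motifs, on either strand, in capitals. H2ac11 (chr13:22042900-22043199, minus strand) holds CCAAT in 5 places and none of the other motifs. H2ac8 (chr13:23571171-23571470, minus strand) holds each of the first 3 motifs, but neither the H1 motif nor the Bcl6 motif. H4c4 (chr13:23581318-23581617, plus strand) holds TATAAA and CCAAT.
H2ac11: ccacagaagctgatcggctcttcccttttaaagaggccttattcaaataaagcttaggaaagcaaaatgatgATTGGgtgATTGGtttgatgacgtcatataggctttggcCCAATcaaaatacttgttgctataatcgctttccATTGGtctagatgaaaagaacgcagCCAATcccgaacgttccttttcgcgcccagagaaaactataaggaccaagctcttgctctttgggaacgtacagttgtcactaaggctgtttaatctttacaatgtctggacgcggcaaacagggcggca
H2ac8: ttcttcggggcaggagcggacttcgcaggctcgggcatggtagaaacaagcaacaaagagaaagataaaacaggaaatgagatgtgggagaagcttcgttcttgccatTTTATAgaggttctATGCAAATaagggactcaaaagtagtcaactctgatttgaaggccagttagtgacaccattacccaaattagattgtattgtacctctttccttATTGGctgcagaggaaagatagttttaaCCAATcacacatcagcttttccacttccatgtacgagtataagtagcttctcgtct
H4c4: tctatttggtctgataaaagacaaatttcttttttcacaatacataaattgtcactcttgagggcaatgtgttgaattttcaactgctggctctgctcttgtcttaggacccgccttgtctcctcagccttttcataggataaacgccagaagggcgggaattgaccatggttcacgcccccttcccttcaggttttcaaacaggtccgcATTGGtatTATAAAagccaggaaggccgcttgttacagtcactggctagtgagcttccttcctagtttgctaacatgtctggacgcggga

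In Bcl6-OE cells most replication-dependent histone genes were higher than in co-transferred control cells. Summed over all 42 members listed, they took 187.5 and 165 of every 1000000 counts in the Bcl6-OE libraries, against 71.43 and 65.61 in the control libraries, a ratio of 2.57. The libraries of the groups did not overlap, and with 2 libraries a group the sum was not tested. The single most abundant member, H1f2, carried much of the control level, and without it the ratio was 3.27. On the FPKM scale, which divides each count by transcript length, the summed values were 255.6 and 207 against 56 and 49.97, a ratio of 4.37. In bulk samples, more cells that express a gene and more of its RNA per cell cannot be told apart.

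**Figure D1:**
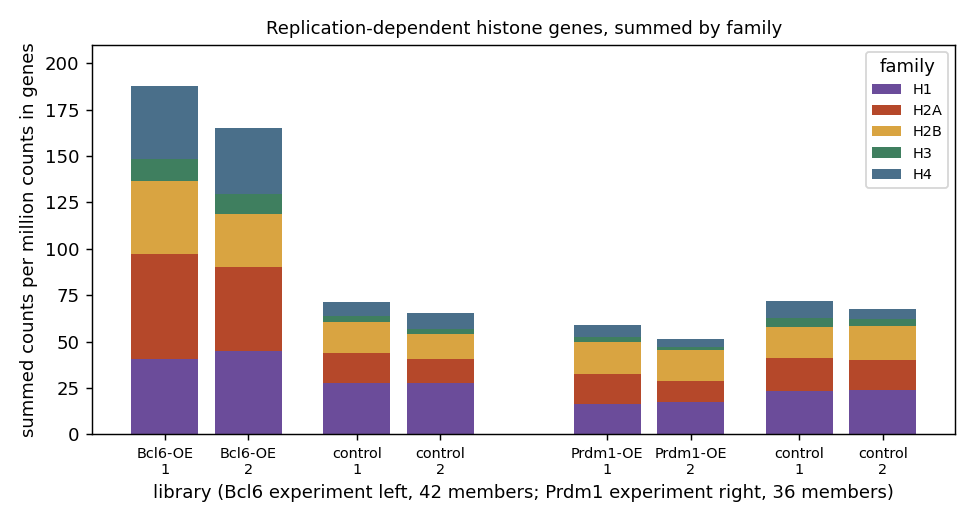
Summed level of replication-dependent histone genes, in counts per 1000000 counts in genes, for each library of both OT-I experiments, with the overexpressing group left of its control; each bar is a library, stacked by histone family. The Bcl6-OE libraries lie at 187.5 and 165 and their controls at 71.43 and 65.61, while the Prdm1-OE libraries lie at 59.14 and 51.6, below their controls at 71.93 and 67.65.

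Of the 42 replication-dependent members listed in the Bcl6 experiment, 32 passed the filter of a mean of at least 1 FPKM. Of these, 24 were higher and 1 was lower in Bcl6-OE cells, where 48.8% of all 9669 genes tested were called, 25.4% higher and 23.4% lower. The median log2 fold change of the 32 was 2.45. Because 20 of them passed the filter only through their level in Bcl6-OE cells, the count is biased towards higher members. Among the 12 with a control mean of at least 1 FPKM, 8 were higher and 1 was lower. Of the 10 members that were not tested, 6 had both Bcl6-OE counts above both control counts and 2 had both below, at 1 to 97 counts. Over all 42 members, FPKM in the Bcl6-OE libraries lay wholly above the controls in 34, wholly below in 3 and overlapped in 5, where 75.5% of all genes tested did not overlap. Every gene listed in this experiment has at least 20 counts over its libraries, which some of the 42 reached only through Bcl6-OE cells. H3c10, for example, had 11 and 5 counts in Bcl6-OE cells against 3 and 2 in control cells. The count of members wholly above is therefore biased upwards as well.

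All 5 families had a higher summed level in Bcl6-OE cells. Histone H4 genes took 38.84 and 35.53 counts per 1000000 in Bcl6-OE cells against 7.652 and 8.602 in control cells, and FPKM lay wholly above the controls in 7 of 8 listed. Histone H2A genes took 56.46 and 45.25 against 16.34 and 12.73, with FPKM wholly above in 6 of 8 listed and below in 1. Histone H3 genes took 12.29 and 11.02 against 3.406 and 2.722, with FPKM wholly above in 9 of 9 listed. In each of these families the Bcl6-OE libraries stood far above the controls. Histone H2B genes took 39.07 and 28.18 against 16.54 and 13.9, with FPKM wholly above in 8 of 12 listed. Linker histone H1 genes took 40.8 and 45.07 against 27.5 and 27.65, with FPKM wholly above in 4 of 5 listed, the smallest separation of the 5 families. The families differ in length, with a median exon length of 1560 bases for H1 and 502 to 774 bases for the others. Of the 896 and 1006 H1 counts in Bcl6-OE cells, 424 and 487 were of H1f2. H1f2 is among the H1 genes with FPKM wholly above, though its counts overlapped between groups. The H3 genes H3c10 and H3c2 are listed only through their Bcl6-OE counts. Over all genes tested, 75.5% did not overlap between groups, in either direction. The difference between families was not tested.

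H2ac11, an H2A gene of the large cluster on chromosome 13 (chr13:22042460-22042944), was the highest replication-dependent member in Bcl6-OE cells. It had 780 and 525 counts in Bcl6-OE cells, against 39 and 38 in control cells (FPKM 75.1 and 48.5 against 3.72 and 3.43). The control libraries were nearly equal and both lay far below the Bcl6-OE libraries, with a log2 fold change of 4.02 ± 0.34 (SE, n = 2 each, edgeR adjusted p = 4.0e-09). Its divergent neighbour H2bc11, an H2B gene (chr13:22043214-22043676), had 101 and 83 counts in Bcl6-OE cells, against 17 and 7 in control cells (log2 fold change 2.86 ± 0.55, edgeR adjusted p = 2.4e-04). Both genes of this pair were thus higher.

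H2ac8, an H2A gene (chr13:23570517-23571220), had 168 and 205 counts in Bcl6-OE cells, against 26 and 15 in control cells (log2 fold change 3.11 ± 0.46, edgeR adjusted p = 1.4e-05). The H2B gene H2bc8, whose start site lies 178 bases from that of H2ac8, had 61 and 42 counts in Bcl6-OE cells, against 47 and 47 in control cells (log2 fold change 0.07 ± 0.47, edgeR adjusted p = 0.91). Its groups overlapped, so that in this divergent pair a difference was found for one gene and was not detectable for the other; the difference between the pair was not tested. H4c4, an H4 gene (chr13:23581598-23582735), had 332 and 254 counts in Bcl6-OE cells, against 33 and 36 in control cells (log2 fold change 3.02 ± 0.39, edgeR adjusted p = 2.5e-06). H2bu2, an H2B gene of the small cluster on chromosome 11 (chr11:58948920-58949533), had 98 and 83 counts in Bcl6-OE cells, against 12 and 12 in control cells (log2 fold change 2.84 ± 0.52, edgeR adjusted p = 1.5e-04). In H4c4 and H2bu2 the libraries of each group lay close together and the groups stood apart. H2bu2, at 0.904 and 0.856 FPKM in control cells, passed the filter only through Bcl6-OE cells.

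Among the other abundant members, H4c9 had FPKM of 17.8 and 19.97 in Bcl6-OE cells, against 4.26 and 4.64 in control cells (log2 fold change 2.0, edgeR adjusted p = 9.1e-05). The linker histone gene H1f5 had FPKM of 13.5 and 19.3 in Bcl6-OE cells, against 4.17 and 3.24 in control cells (log2 fold change 2.06, edgeR adjusted p = 1.5e-04). The H2B gene H2bc4 had FPKM of 13.1 and 9.93 in Bcl6-OE cells, against 2.48 and 2.16 in control cells (log2 fold change 2.22, edgeR adjusted p = 4.7e-05). None of these 3 genes overlapped between groups. H1f2, a linker histone gene (chr13:23738808-23740367), was the exception among abundant members, with 424 and 487 counts in Bcl6-OE cells against 422 and 430 in control cells (log2 fold change 0.03 ± 0.25, edgeR adjusted p = 0.93). Its FPKM of 12.7 and 14.0 in Bcl6-OE cells lay just above the 12.5 and 12.1 of control cells, while in counts 1 Bcl6-OE library lay between the controls.

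The member that fell in Bcl6-OE cells was H2aw, an H2A gene next to H2bu2 (chr11:58954685-58956830). It had 66 and 80 counts in Bcl6-OE cells, against 180 and 176 in control cells (log2 fold change -1.35 ± 0.38, edgeR adjusted p = 0.0063). Its groups did not overlap, and it moved opposite to H2bu2 on the same chromosome. H1f4, a linker histone gene picked after its values were seen, had 184 and 128 counts in Bcl6-OE cells, against 9 and 8 in control cells (log2 fold change 4.12 ± 0.53, edgeR adjusted p = 2.0e-06). It passed the filter only through its level in Bcl6-OE cells. H1f4 and H2bc6 overlap on the same strand of chromosome 13, and how reads in the overlap were assigned is not given. Many members are also near-identical copies of one another in their coding parts, so that reads may have been assigned to the wrong copy or dropped, and the value of a single gene is less certain than that of its family.

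**Figure D2:**
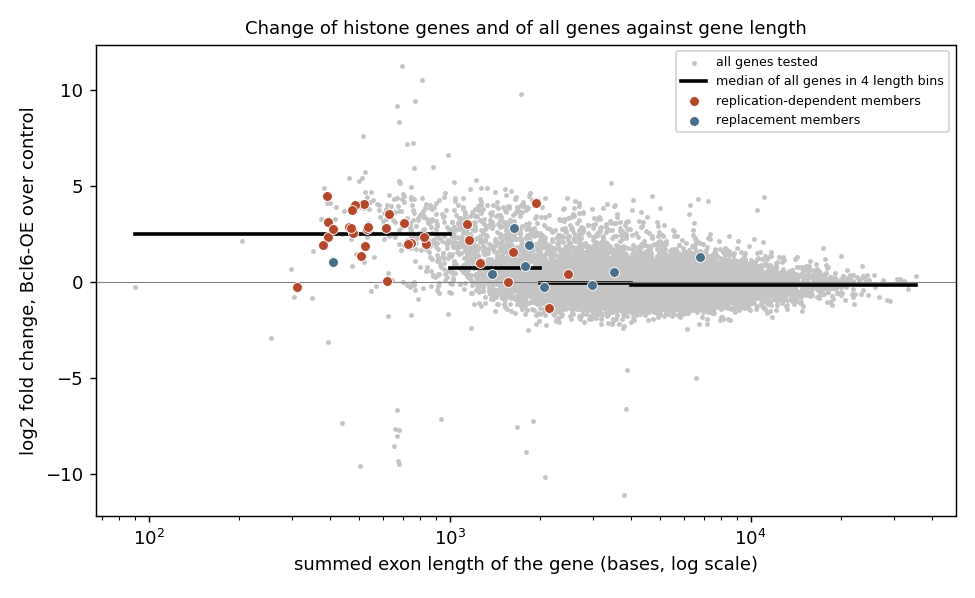
Log2 fold change of Bcl6-OE over control cells against annotated exon length (bases, log axis) for all genes tested, with replication-dependent and replacement histone genes marked; black lines are medians of all genes in 4 length classes. Genes under 1000 bases lie mostly above 0, with a median of 2.54, and most replication-dependent histone genes lie among them.

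Gene length moved with this comparison over all genes. Among 276 tested genes with annotated exons under 1000 bases in total, the median log2 fold change of Bcl6-OE over control cells was 2.54 and 77.2% were called higher. In the same length class, 20 of 24 replication-dependent members were higher, with a median of 2.77, though 8 of the 24 had a control mean of at least 1 FPKM, of which 6 were higher. The rest of the 24 passed the filter only through Bcl6-OE cells. Between 1000 and 2000 bases, 51.6% of 1091 genes were higher with a median of 0.74, and 4 of 6 replication-dependent members were higher with a median of 1.90. Between 2000 and 4000 bases, 25.2% of 3012 genes were higher with a median of -0.01, while 0 of 2 replication-dependent members were higher and 1, H2aw, was lower. The total of FPKM over all genes was 343867 and 324795 in the Bcl6-OE libraries, against 258148 and 240093 in the control libraries, so that reads in the Bcl6-OE libraries fell more on short genes.

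With the trends of fold change over gene length and GC content removed from each library, an alternative planned with earlier results of these data known, 7 replication-dependent members were called and their median log2 fold change was -0.25. Of these, 3 were higher in Bcl6-OE cells, namely H1f4 (3.42), H4c4 (1.61, adjusted p = 0.0010) and H2bc4 (0.99, adjusted p = 0.019). The other 4 were lower, namely H2aw (-1.63), H1f2 (-1.17, adjusted p = 2.5e-04), H2bc8 (-2.47) and H4c12 (-4.36). H1f4, H2bc8 and H4c12 are named here after their values were seen, and H4c12 rests on 10 and 5 counts in Bcl6-OE cells against 8 and 9 in control cells. H2ac11, with the largest fold change among the abundant members in the deposited counts, had a log2 fold change of 0.37 after removal (adjusted p = 0.28). With the length trend alone removed, which was added after seeing the data, 7 members were called, 3 higher (H2ac11, H4c4 and H1f4) and 4 lower, with a median of 0.27. With the GC trend alone removed, also added after seeing the data, 18 were called, 16 higher and 2 lower, with a median of 1.61. The genes higher under every one of these settings were H4c4 and H1f4. H1f4, at 0.216 and 0.182 FPKM in control cells, passed the filter only through Bcl6-OE cells. Every one of these settings kept that filter, so they do not remove this selection. The counts called under these settings are not set beside the share of all genes called under them.

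**Figure D3:**
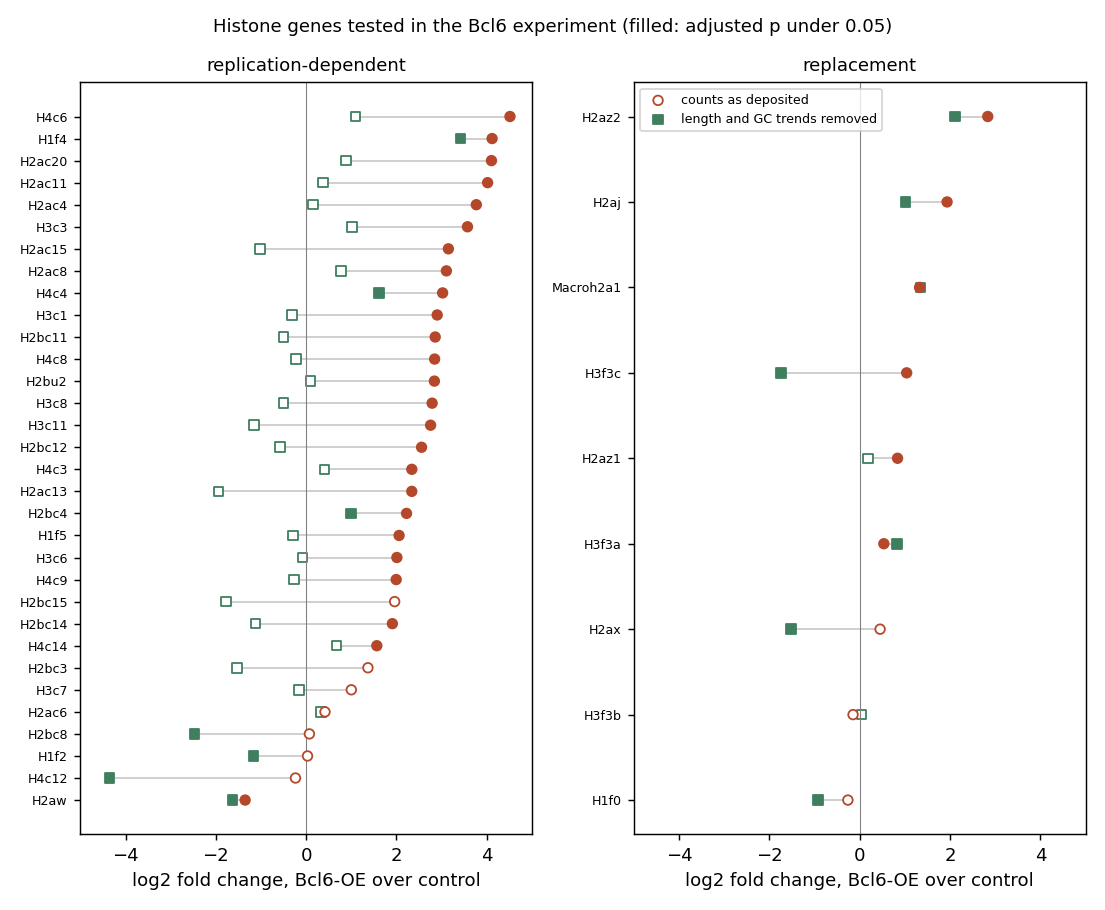
Log2 fold change of Bcl6-OE over control cells for each tested replication-dependent gene (left) and replacement gene (right), from the deposited counts (circles) and with length and GC trends removed (squares); filled symbols have an adjusted p under 0.05. Most replication-dependent genes move from above 2 to around 0 when the trends are removed, while H2az2, H2aj and Macroh2a1 stay above 0.

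Members were also grouped by how their annotated transcript ends. Of 13 listed members whose transcript ends within 100 bases of the stem-loop, FPKM in Bcl6-OE cells lay wholly above control cells in 13 (median exon length 508 bases). Of 18 whose transcript runs on for over 100 bases, it lay wholly above in 12 and wholly below in 2 (median exon length 1410 bases). Of 11 without the motif in their annotated transcript, it lay wholly above in 9 and wholly below in 1 (median exon length 411 bases). Among the few members with a control mean of at least 1 FPKM, 3 of 3, 3 of 6 and 2 of 3 in these classes were called higher. Over all genes tested, 75.5% did not overlap between groups, in either direction, and 25.4% were called higher. Among tested genes under 1000 bases, 77.2% were called higher. The listed members include some that are listed only through their Bcl6-OE counts. The classes differ in length as well as in their ends, and their difference was not tested.

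Genes of the cell cycle and of histone mRNA metabolism were more often lower than higher in Bcl6-OE cells. Over all genes tested, 25.4% were higher and 23.4% lower. Of 45 DNA replication genes tested, 2 were higher and 22 were lower, with a median log2 fold change of -0.47 against 0.002 over all genes. The lower ones included Rrm1 (-1.27) and Rrm2 (-1.10), the subunits of ribonucleotide reductase, the cyclin gene Ccne2 (-1.99) and the helicase subunit gene Mcm4 (-1.06). Of 28 mitosis genes tested, 2 were higher and 20 were lower, with a median of -0.74, and Mki67, a marker of cycling cells, did not pass the test (-0.07, edgeR adjusted p = 0.79).

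Slbp had 3161 and 4743 counts in Bcl6-OE cells, against 11629 and 11537 in control cells (log2 fold change -1.62, edgeR adjusted p = 4.8e-07). Both Bcl6-OE libraries lay far below the control libraries, opposite in direction to most histone genes whose transcripts Slbp binds. That contrast is one of the deposited counts. With length and GC trends removed, most replication-dependent members were not called, and Slbp was not examined in that setting. Npat was also lower (-0.77, edgeR adjusted p = 0.0029). Of all genes tested, 25.4% were higher and 23.4% lower. In the whole list of histone mRNA processing and decay genes, 3 of 20 tested were higher and 11 were lower. Those higher included Upf1 (1.68), a helicase needed for histone mRNA decay, and Lsm10 (1.30), part of the particle that cuts the transcript after the stem-loop; Cstf2, of the cleavage stimulation factor, was lower (-0.96).

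Of 40 histone chaperone and depositor genes tested, 10 were higher and 14 were lower in Bcl6-OE cells, where 25.4% of all genes were higher and 23.4% lower, so that the count of higher ones was at the level of all genes. Znhit1 (2.66), a subunit of the complex that exchanges H2A for H2A.Z, and the acidic chaperone genes Anp32a (2.69) and Anp32b (2.24) were higher. Asf1b (-1.27), a chaperone of H3 and H4 in dividing cells, was lower. Of 10 genes of high mobility group and related chromatin proteins, 3 were higher and 3 were lower.

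Markers of other cells moved with this comparison too. The 11 listed macrophage and monocyte markers summed to 662 and 570 counts per 1000000 in Bcl6-OE cells, against 163 and 157 in control cells, and 9 of 9 tested were higher. Neutrophil markers summed to 72.9 and 64.9 in Bcl6-OE cells against 4.48 and 2.35 in control cells, and 3 of 3 tested were higher. Erythroid markers summed to 20.9 and 15.6 in Bcl6-OE cells against 0.984 and 1.18 in control cells, with 3 of 3 tested higher. Lymphoma and thymocyte markers summed to 61.6 and 62.9 against 42.3 and 44.9, with 2 of 2 tested higher. In the other direction, stromal and endothelial markers summed to 64.4 and 67.7 against 126 and 136. Dendritic cell markers were also lower, at 19.2 and 14.3 against 32.6 and 29. None of the listed markers was at 0 in every library, and CD8 T cell markers were at 6960 and 6250 in Bcl6-OE cells against 5740 and 4980 in control cells. Their part in the histone result was not tested.

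Of the 11 replacement histone genes listed in the Bcl6 experiment, 9 were tested and 6 were higher in Bcl6-OE cells, with a median log2 fold change of 0.84 (3 were called without control replicate 2), where 25.4% of all genes tested were higher and 23.4% lower. The largest difference was in H2az2, which encodes a form of H2A.Z, the variant placed at promoters (chr11:6427229-6444443). It had 5185 and 3887 counts in Bcl6-OE cells, against 687 and 529 in control cells (FPKM 148 and 107 against 19.5 and 14.2). Both Bcl6-OE libraries lay far above the controls, a 7.14-fold difference (log2 fold change 2.84 ± 0.22, edgeR adjusted p = 7.7e-10). With length and GC trends removed it was still higher (log2 fold change 2.11). Its paralog H2az1 had FPKM of 243 and 225 in Bcl6-OE cells, against 153 and 94.2 in control cells (log2 fold change 0.84 ± 0.20, edgeR adjusted p = 0.0015). That call was lost without control replicate 2 (0.54, adjusted p = 0.13) and with the trends removed (0.18, adjusted p = 0.28).

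**Figure D4:**
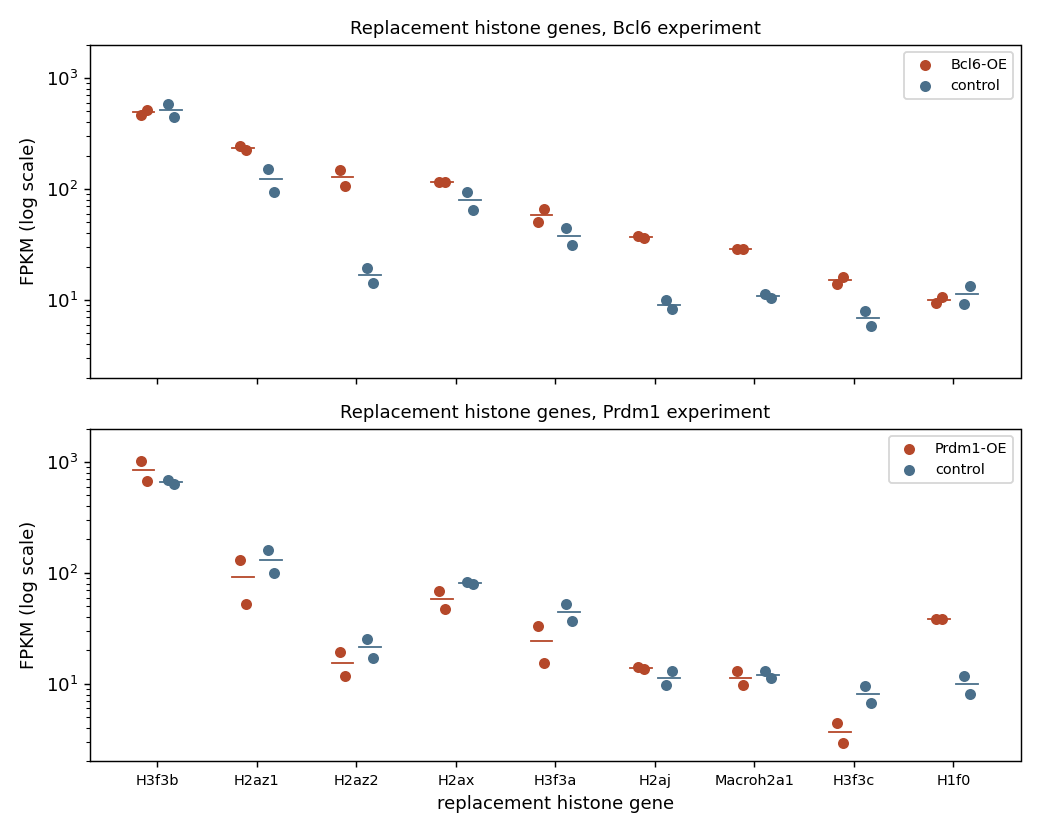
FPKM of replacement histone genes in each library (log axis) in the Bcl6 experiment (top) and the Prdm1 experiment (bottom), with the overexpressing group left of its control for each gene; points are libraries and lines are group means. H2az2 lies at 148 and 107 in Bcl6-OE cells against 19.5 and 14.2 in control cells, and H1f0 at 38.8 and 38.6 in Prdm1-OE cells against 11.7 and 8.07 in control cells.

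H2aj, an H2A variant gene, had FPKM of 37.4 and 36.4 in Bcl6-OE cells, against 9.95 and 8.23 in control cells (log2 fold change 1.93 ± 0.22, edgeR adjusted p = 3.1e-07). Macroh2a1, which encodes a large H2A variant linked to silent chromatin, had FPKM of 28.8 and 28.7 in Bcl6-OE cells, against 11.3 and 10.4 in control cells (log2 fold change 1.32 ± 0.17, edgeR adjusted p = 2.7e-06). In both genes the libraries of a group lay close together and the groups did not overlap. With length and GC trends removed, H2aj (1.01) and Macroh2a1 (1.35) were still called higher. The value of Macroh2a1, whose exons total 6809 bases, thus hardly moved.

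The H3 replacement variant is encoded by H3f3a and H3f3b. H3f3a had FPKM of 50.1 and 65.8 in Bcl6-OE cells, against 44.5 and 31.0 in control cells (log2 fold change 0.53 ± 0.19, edgeR adjusted p = 0.028). The call for H3f3a was lost without Bcl6-OE replicate 2 (0.31, adjusted p = 0.11) and without control replicate 2 (0.30, adjusted p = 0.42). H3f3b, the most abundant histone gene in every library, had FPKM of 466 and 519 in Bcl6-OE cells, against 588 and 442 in control cells (log2 fold change -0.15 ± 0.18, edgeR adjusted p = 0.52). Its groups overlapped. H3f3c, annotated as a processed pseudogene on chromosome 2, had FPKM of 14.0 and 16.2 in Bcl6-OE cells, against 7.99 and 5.86 in control cells (log2 fold change 1.04 ± 0.41, edgeR adjusted p = 0.040). Reads of H3f3c and of its parent genes may not be separable, and its call was lost without any 1 of the 4 libraries and reversed with the trends removed (-1.75).

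H2ax had FPKM of 115 and 115 in Bcl6-OE cells, against 93.2 and 65.1 in control cells, and did not pass the threshold (log2 fold change 0.45 ± 0.19, edgeR adjusted p = 0.052). It was called higher without control replicate 1 (0.72, adjusted p = 0.037). With length and GC trends removed its value turned to -1.52 and was called lower. H1f0, the linker histone gene that accumulates in cells leaving the cycle, had FPKM of 9.38 and 10.6 in Bcl6-OE cells, against 9.27 and 13.3 in control cells (log2 fold change -0.26 ± 0.25, edgeR adjusted p = 0.41), with overlapping groups. With the trends removed H1f0 was called lower (-0.92). Both genes that were not tested had few counts. H1f7, a linker histone gene of the testis, had 0 and 0 counts in Bcl6-OE cells against 12 and 11 in control cells, and H1f8, of the oocyte, had 10 and 4 against 5 and 16.

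In Prdm1-OE cells no difference in replication-dependent histone genes passed the test. The 36 members listed took 59.14 and 51.6 of every 1000000 counts in Prdm1-OE cells, against 71.93 and 67.65 in control cells. The ratio was 0.793, and the groups did not overlap. Without H1f2, the most abundant of the 36, they took 48.47 and 39.79 against 56.04 and 48.01, and the groups overlapped. Of the 12 that passed the filter, 0 were called by edgeR or by DESeq2 and 1 had an unadjusted p under 0.05, where 1.36% of all 9947 genes tested were called, 1.16% higher and 0.201% lower. The median log2 fold change of the 12 was -0.12. Over all 36 members, FPKM in the Prdm1-OE libraries lay wholly above the controls in 2, wholly below in 9 and overlapped in 25, where 49.6% of all genes tested did not overlap.

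H1f2, the most abundant replication-dependent member here as well, had FPKM of 6.60 and 7.33 in Prdm1-OE cells, against 9.83 and 12.2 in control cells (log2 fold change -0.56 ± 0.29, edgeR adjusted p = 0.35). Both Prdm1-OE libraries lay below both controls, but the difference did not pass the test. H2aw had FPKM of 4.65 and 4.18 in Prdm1-OE cells, against 4.91 and 5.54 in control cells (log2 fold change -0.14, edgeR adjusted p = 0.85). H2ac11 had FPKM of 4.55 and 2.61 in Prdm1-OE cells, against 3.26 and 5.05 in control cells (log2 fold change -0.10, edgeR adjusted p = 0.94). The groups overlapped in H2ac11 but not in H2aw. H2bc8 had FPKM of 3.31 and 3.92 in Prdm1-OE cells, against 1.62 and 2.91 in control cells (log2 fold change 0.77, edgeR adjusted p = 0.51). H2bc4 had FPKM of 3.63 and 2.33 in Prdm1-OE cells against 5.01 and 2.81 in control cells, and H4c9 had 3.25 and 2.47 against 2.97 and 2.20. Neither of these 2 genes passed the test (-0.28 and 0.25 on the log2 scale), and both overlapped between groups. The gene with the unadjusted p under 0.05 was H4c4, with 14 and 9 counts in Prdm1-OE cells against 56 and 33 in control cells (log2 fold change -1.81 ± 0.64, edgeR adjusted p = 0.20). The same gene was among those higher in Bcl6-OE cells; the 2 experiments have separate controls, and the difference between them was not tested.

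Of the 15 replacement genes listed in the Prdm1 experiment, 9 were tested and 1 was called, H1f0 (chr15:79028450-79030504), where 1.36% of all genes tested were called. It had 1520 and 1506 counts in Prdm1-OE cells, against 457 and 332 in control cells (FPKM 38.8 and 38.6 against 11.7 and 8.07). The Prdm1-OE libraries were nearly equal and lay far above the controls, a 4.20-fold difference (log2 fold change 2.07 ± 0.25, edgeR adjusted p = 0.017). The call was lost without control replicate 1 (2.37, adjusted p = 0.090) and without control replicate 2 (1.82, adjusted p = 0.20), each fit assuming that the lone control varied like the other group. With length and GC trends removed the value was 2.11. The summed erythroid markers, a cell type that also uses H1f0, were at 1.86 and 3.18 counts per 1000000 in Prdm1-OE cells against 1.17 and 0.546 in control cells, and 0 of the 4 listed passed the filter. Neutrophil markers summed to 86.5 and 103 counts per 1000000 in Prdm1-OE cells against 3.87 and 6.35 in control cells, and macrophage markers to 332 and 189 against 501 and 449; their part in the result was not tested.

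The other replacement genes did not pass the test in Prdm1-OE cells in this fit, which has no replicate block. H3f3b had FPKM of 1013 and 677 in Prdm1-OE cells, against 691 and 635 in control cells (log2 fold change 0.46, edgeR adjusted p = 0.33). H3f3a had FPKM of 33.5 and 15.4 in Prdm1-OE cells, against 52.2 and 37.2 in control cells (log2 fold change -0.75, edgeR adjusted p = 0.32). H3f3a therefore lay lower in both Prdm1-OE libraries while H3f3b overlapped. H2az1 had FPKM of 132 and 52.0 in Prdm1-OE cells, against 162 and 100 in control cells, with a wide spread within both groups (log2 fold change -0.39, edgeR adjusted p = 0.68). Among the remaining tested genes the log2 fold changes were -1.01 for H3f3c, -0.36 for H2ax, -0.35 for H2az2, 0.01 for Macroh2a1 and 0.38 for H2aj. The 6 genes that were not tested had 0 to 40 counts in a library. Among these, H2ab1 and H2ab2, X-linked genes of short H2A variants known from the testis, had 8 and 10 and 6 and 8 counts in Prdm1-OE cells, against 3 and 0 and 0 and 0 in control cells. Macroh2a2 had 40 and 15 counts in Prdm1-OE cells against 4 and 10 in control cells, and H1f8 had 15 and 6 against 0 and 2. Few counts stand behind each of these values, and H2ab3 (3 and 1 against 0 and 8) and H1f7 (8 and 4 against 33 and 2) overlapped between groups.

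Few genes of the related lists were called in Prdm1-OE cells. Of 38 histone chaperone genes tested 1 was higher, Mms22l (1.33, edgeR adjusted p = 0.048), which acts with H3 and H4 at stalled replication forks. In the lists of DNA replication, mitosis, histone mRNA processing and high mobility group genes, 0 were called. Slbp (0.51, edgeR adjusted p = 0.14), Npat (0.01) and Mki67 (0.25, edgeR adjusted p = 0.48) did not pass the test.

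In TILs the 4 members listed are H1f0, H3f3a, H3f3b and H3f3c, all tested. H1f0 was the member that separated the sorted populations. It had 2108 and 1493 counts in Bcl6+ cells, 769 and 1095 in TIM-3+ cells, and 2682 and 2544 in DN cells (FPKM 45.6 and 31.7, 17.9 and 25.5, and 58.2 and 54.6). The 3 populations did not overlap, with TIM-3+ cells lowest and DN cells highest. H1f0 was higher in Bcl6+ than in TIM-3+ cells (log2 fold change 0.89 ± 0.19, edgeR adjusted p = 0.0016), the 1 member called of 4, where 38.6% of 9748 genes were called, 19.1% higher and 19.6% lower. It was lower in TIM-3+ than in DN cells (log2 fold change -1.43 ± 0.19, edgeR adjusted p = 5.9e-05), again the 1 member called, where 28.2% of genes were called, 14.9% higher and 13.2% lower. Between Bcl6+ and DN cells it did not pass the threshold (log2 fold change -0.53 ± 0.18, edgeR adjusted p = 0.071), while without Bcl6+ replicate 1 it was called lower (-0.82, adjusted p = 0.016).

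**Figure D5:**
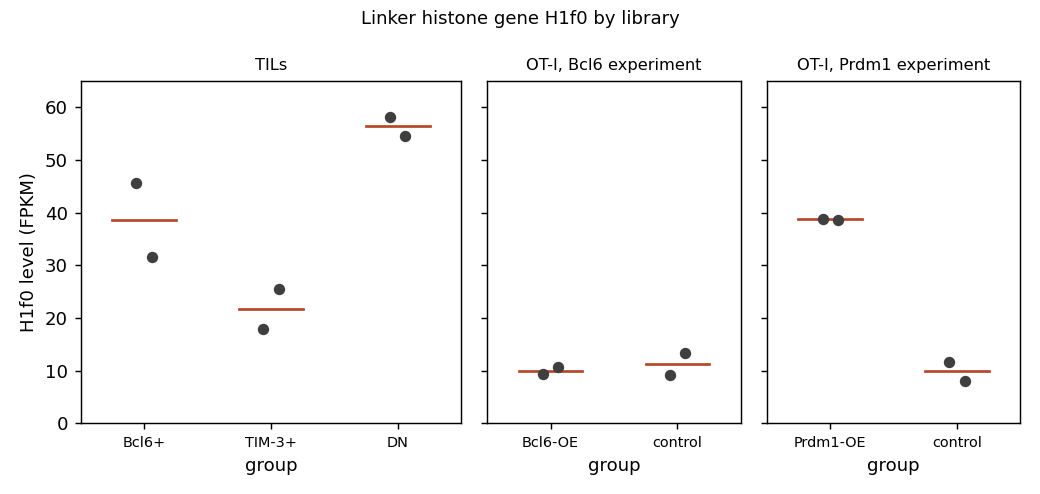
FPKM of H1f0 in every library, by experiment and group; points are libraries and lines are group means. In TILs it lies at 45.6 and 31.7 in Bcl6+ cells, 17.9 and 25.5 in TIM-3+ cells and 58.2 and 54.6 in DN cells, and in OT-I cells the Prdm1-OE libraries (38.8 and 38.6) lie above their controls.

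H3f3b was nearly level, with FPKM of 429 and 384 in Bcl6+ cells, 481 and 457 in TIM-3+ cells, and 483 and 466 in DN cells. Bcl6+ cells were lowest, and lower than DN cells (log2 fold change -0.21 ± 0.06, edgeR adjusted p = 0.023), the 1 member called of 4, where 14.2% of genes were called, 6.49% higher and 7.69% lower. That call was lost without Bcl6+ replicate 2 (-0.13, adjusted p = 0.13), without DN replicate 1 (-0.18, adjusted p = 0.22) and without DN replicate 2 (-0.24, adjusted p = 0.086). Between Bcl6+ and TIM-3+ cells H3f3b did not pass the threshold in this fit (-0.15, edgeR adjusted p = 0.054), nor between TIM-3+ and DN cells (-0.06, edgeR adjusted p = 0.46). H3f3a had FPKM of 33.4 and 41.1 in Bcl6+ cells, 38.1 and 39.0 in TIM-3+ cells, and 41.4 and 43.9 in DN cells, and was not called in any comparison. H3f3c, with FPKM of 10.3 and 15.9 in Bcl6+ cells, 14.0 and 14.1 in TIM-3+ cells, and 16.6 and 14.5 in DN cells, was not called either. The Bcl6+ libraries spread more widely than the others in both genes.

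H1f0 was lowest in TIM-3+ cells, where dividing-cell genes were highest. Mitosis genes summed to 845 and 784 counts per 1000000 in Bcl6+ cells, 3720 and 3820 in TIM-3+ cells, and 1140 and 1170 in DN cells, so that Bcl6+ cells lay below DN cells in these genes as in the H1f0 values. In the Prdm1 experiment, where H1f0 was higher in Prdm1-OE cells, they summed to 3530 and 3670 in Prdm1-OE cells against 2870 and 2990 in control cells. A relation of H1f0 to these genes was not tested. Of 28 mitosis genes, 28 were lower in Bcl6+ cells set against TIM-3+ cells, 14 were lower in Bcl6+ cells set against DN cells, and 28 were higher in TIM-3+ cells set against DN cells. Of 45 DNA replication genes, Bcl6+ cells had 39 lower and 1 higher against TIM-3+ cells, and TIM-3+ cells had 37 higher and 1 lower against DN cells. The 3 comparisons share libraries, so these counts are not independent. Mki67 differed by a log2 fold change of -1.83 between Bcl6+ and TIM-3+ cells (edgeR adjusted p = 7.1e-08), by -0.49 between Bcl6+ and DN cells (edgeR adjusted p = 0.018) and by 1.34 between TIM-3+ and DN cells (edgeR adjusted p = 2.8e-06). Slbp was lower in Bcl6+ than in TIM-3+ cells (-0.32, edgeR adjusted p = 0.016) and higher in TIM-3+ cells against DN cells (0.37, edgeR adjusted p = 0.0093), and did not pass the test between Bcl6+ and DN cells (0.05, edgeR adjusted p = 0.80). Npat was not called in any of the 3 comparisons.

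Of 39 histone chaperone genes tested, 18 were lower, 4 were higher and the others were not called in Bcl6+ against TIM-3+ cells, where 19.6% of all genes were lower and 19.1% higher. Those lower included Cenpa (-1.14), the centromeric H3 variant, Nap1l1 (-0.85), a chaperone of H2A and H2B, and Dnajc9 (-0.83), a chaperone of H3 and H4. Between TIM-3+ and DN cells 15 were higher and 3 were lower, among them Asf1b (1.48). Between Bcl6+ and DN cells 2 were higher and 3 were lower.

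Erythroid markers, 5 of 6 listed, moved in the same order as H1f0, a gene that erythroid cells also use. They summed to 44.4 and 48.4 counts per 1000000 in Bcl6+ cells, 20.9 and 27.6 in TIM-3+ cells, and 77.5 and 73.9 in DN cells, and their part in the H1f0 result was not tested. Of the 5 tested, 3 were higher and 1 was lower in Bcl6+ than in TIM-3+ cells, and 4 were lower in TIM-3+ than in DN cells. Macrophage markers followed another order, with 280 and 239 in Bcl6+ cells, 72.3 and 53.2 in TIM-3+ cells, and 154 and 159 in DN cells. Lymphoma and thymocyte markers had the macrophage order, with 111 and 119 in Bcl6+ cells, 14.2 and 20.8 in TIM-3+ cells, and 74.7 and 75 in DN cells.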

How the data were processed

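RNA was extracted with Trizol from sorted CD8 T cells, per the labels' protocols, and libraries were made and sequenced by a service company. The authors deposited read counts and FPKM per gene for each library. Tools named in the submitters' processing notes, with no versions and all on mm10, are Subread with featureCounts, Bowtie2, DESeq2 and edgeR for the TIL experiment. For both OT-I experiments they are HISAT2, RSEM, featureCounts and DESeq2. How RNA was selected, whether counting used strand and how reads matching several genes were treated is not given in the sources used here; each of these can change histone values. Every gene in the deposited TIL and Bcl6 tables has at least 20 counts over their libraries, while the Prdm1 tables also list genes below that.

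Deposited counts were tested with edgeR 4.0.16 in R 4.3.3 (TMM scaling, glmQLFit and glmQLFTest, two-sided, Benjamini-Hochberg adjusted p of 0.05), for genes whose FPKM averaged 1 or more in the fit. TILs were fitted in 1 model of 6 libraries and the OT-I experiments in separate models of 4. DESeq2 1.42.0 and limma 3.58.1 were alternatives, as were library sizes, filters, a replicate block and removal of length and GC trends. The fits were checked on simulated counts. Summed levels are counts of all listed members per 1000000 counts in genes. Replicates of every group differed by more than sampling noise. Exon lengths, coordinates and stem-loops are from GENCODE M21 (mm10), and promoter windows from RefSeq (GRCm38.p6).

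The text names every replacement member. Of the replication-dependent members it names, per comparison, the 5 called with the largest difference, no overlap between groups and a mean of at least 5 FPKM in the higher group, and, per experiment, the 6 with the highest mean FPKM. It names up to 4 members of each related list with the smallest p, and Slbp, Npat and Mki67; any other member was picked with its values in view. The members, lists and tests were all chosen with earlier results of these data known. No label says that libraries with the same replicate number share an animal, so the fits of the report hold no replicate block.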

Additional observations from a re-analysis of the deposited data

How the results depend on the processing

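The Bcl6-OE count of 25 replication-dependent calls was 7 with length and GC trends removed, 7 with the length trend alone removed (added after seeing the data), and 18 to 25 when single libraries were left out. Their summed ratio of 2.57 was 4.37 on FPKM, 3.27 without H1f2 and 2.41 to 2.74 without single libraries, and the Prdm1-OE ratio was 0.739 to 0.847. Replacement genes went both ways in Bcl6-OE cells with length and GC trends removed. H3f3a (0.83), H2aj (1.01), H2az2 (2.11) and Macroh2a1 (1.35) were called higher, and H3f3c (-1.75), H2ax (-1.52) and H1f0 (-0.92) lower. The 6 replacement calls in Bcl6-OE cells were 3 to 6 without single libraries. Between Bcl6+ and TIM-3+ cells 2 replacement genes were called in place of 1 with DESeq2, median-of-ratios size factors, no filter, a mean of at least 10 counts, limma with a pseudocount of 1 or 0.1, and length, GC or both trends removed (1 to 2 without single libraries). Between Bcl6+ and DN cells 2 were called with DESeq2, limma with a pseudocount of 1 and a fit of those groups alone (0 to 2 without single libraries), and between TIM-3+ and DN cells 3 were called with total-count library sizes. In Prdm1-OE cells 2 were called with the GC trend removed and 0 to 3 without single libraries. Over all genes, 135 calls in Prdm1-OE cells were 586 with DESeq2, 292 with total-count sizes, 275 with median-of-ratios factors, 44 with no filter, 58 with at least 10 counts, 348 with both trends removed, 454 with length and 409 with GC removed, and 3 to 784 without single libraries. Without single libraries, all calls were 736 to 1180 for Bcl6+ against DN (1383), 1699 to 2210 for TIM-3+ against DN (2745), 3120 to 3384 for Bcl6+ against TIM-3+ and 3252 to 5232 for Bcl6-OE. The cause of these shifts was not tested.

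Replicate numbers pair the libraries only by number. The correlations of same-numbered deviations were 0.0241, 5.88e-05 and 0.0318 in the TIL comparisons, 0.323 for Prdm1-OE and -0.0629 for Bcl6-OE. With a replicate block, 25 replication-dependent genes were called in Bcl6-OE cells (7 with both trends removed too), 2 replacement genes between Bcl6+ and TIM-3+ cells (2), 4 in Prdm1-OE cells (3), with H3f3a (-0.851), H2az1 (-0.515) and H3f3b (0.422) added to H1f0 by the block, and 1659 genes in all in Prdm1-OE cells (1003).

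Several log2 fold changes near 0 changed sign. For Bcl6+ against TIM-3+ cells, total-count sizes gave 0.033 for H3f3b and 0.141 for H3f3c. H3f3a had -0.049 with no filter, -0.034 with at least 10 counts, -0.057 and -0.059 with limma at pseudocounts of 1 and 0.1, -0.008 with both trends removed, -0.015 with the block too, -0.071 with length and -0.026 with GC removed, and -0.147 to 0.15 without single libraries, where H3f3c had -0.386 to 0.239. For Bcl6+ against DN cells H3f3c had -0.58 to 0.045 without single libraries. For TIM-3+ against DN cells, both trends removed, the block too and length removed gave 0.003, 0.003 and 0.046 for H3f3b and 0.260, 0.251 and 0.232 for H3f3c. In Prdm1-OE cells Macroh2a1 had -0.035 with DESeq2 and with median-of-ratios factors, -0.096 with total-count sizes, -0.141 with no filter, -0.109 with at least 10 counts, -0.095 and -0.103 with limma, -0.036 with both trends removed, -0.003 with the block, -0.055 with block and trends, -0.057 with length and -0.032 with GC removed, and -0.267 to 0.163 without single libraries. There H4c9 had -0.021 to 0.491, H2ac11 -0.623 to 0.236, H2az1 -1.288 to 0.081 and H2bc4 -0.701 to 0.203. In Bcl6-OE cells H1f2 had -0.021 with total-count sizes. Both trends removed gave H2bc11 -0.496, H1f2 -1.168, H4c9 -0.272, H1f5 -0.288, H3f3c -1.754, H2ax -1.521 and H3f3b 0.038. The block with both gave H2bc11 -0.459, H1f2 -1.180, H4c9 -0.283, H1f5 -0.355, H3f3c -1.777, H2ax -1.516 and H3f3b 0.044. Length removed gave H1f2 -0.892, H4c9 -0.113, H3f3c -1.670 and H2ax -0.656, and GC removed gave H1f2 -0.503, H2ax -0.953 and H3f3b 0.117. Without single libraries H1f2 had -0.052 to 0.087, H3f3b -0.336 to 0.065 and H1f0 -0.504 to 0.029. Low counts limit single replication-dependent genes, many of which had under 10 counts in a control library.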
